A study of Spinacia oleracea with 6 samples.

Results

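In spinach (Spinacia oleracea) grown in heat, 41 genes were abundant in every heat library and stood at least 4 times higher there than in any control library. They were selected on their measured levels from 30732 genes with an NCBI Gene number. To be included, a gene needed at least 100 CPM (counts divided by a size factor and scaled per M counts of the mean library total) in each heat library and more than 0.2 CPM in at least 1 control library. The lowest heat library also had to reach at least 4 times the highest control library. A single further gene was set aside beforehand. The levels and ratios of the 41 genes in heat and control are therefore a description of what was chosen, and no test of that contrast is drawn on for them.

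The heat group comprised 3 libraries from spinach held for 4 days at 35 °C in the day and 25 °C at night. The control group comprised 3 libraries from spinach held for 4 days at 20 °C in the day and 15 °C at night. An illumination incubator was used throughout. Neither a cultivar nor a tissue is named in the labels, and no label states that replicates are separate plants, so every p-value here reflects the spread among these 6 libraries, which may be technical. The stated aim was to find genes that differ under heat and may be associated with resilience.

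Heat libraries held 42.3 to 48.0 M counts and control libraries 48.4 to 56.8 M. At this depth 1 read was worth 0.0179 to 0.0202 CPM in heat libraries and 0.0202 to 0.0262 CPM in control libraries. In heat, each of the 41 genes had 5646 reads or more in every library. Control library 3 had the lowest size factor, 0.781, against 1.02 in the other 2 control libraries and 1.02 to 1.15 in the heat libraries. Scaling by library totals alone moved the median log2 difference over the tested genes to 0.47, against 0.01 with TMM scaling, and the levels given here use size factors. In bulk RNA, more cells of a type that expresses a gene and more of its RNA per cell cannot be told apart.

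Spinach is a leaf crop of cool seasons. In plants, a shift to heat is known to switch on heat stress transcription factors and chaperones within hours, and days of warmth are known to bring slower changes in photosynthesis, membranes, cell walls and hormone signalling. Which of these the 41 genes belong to is not stated here. All 41 matched protein-coding genes of the BTI_SOV_V1 gene table by gene number, but the table gives 0 of them a name, while 58 of the 1159 matched other genes abundant in heat have one. The genes are therefore called by their locus symbols, without a role.

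Together the 41 genes took 2.50% ± 0.207 of all counts in heat libraries and 0.158% ± 0.0345 in control libraries (mean ± SD, n = 3 each). The share was 2.29 to 2.70% in heat and 0.124 to 0.193% in control, with 95% Wilson intervals at most 0.00943 percentage points wide, which cover counting error only. These shares are of library totals, without size factors, so they are not on the scale of the levels and folds. The 6 most abundant genes supplied 47.8% ± 1.77 of the set's counts in heat and 43.9% ± 3.42 in control. Of the 41 genes, 6 averaged at least 1000 CPM in heat, 13 at least 500 CPM and 30 at least 200 CPM. In control, 3 averaged 100 CPM or more, 34 lay between 10 and 100 CPM and 4 lay under 10 CPM.

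**Figure D1:**
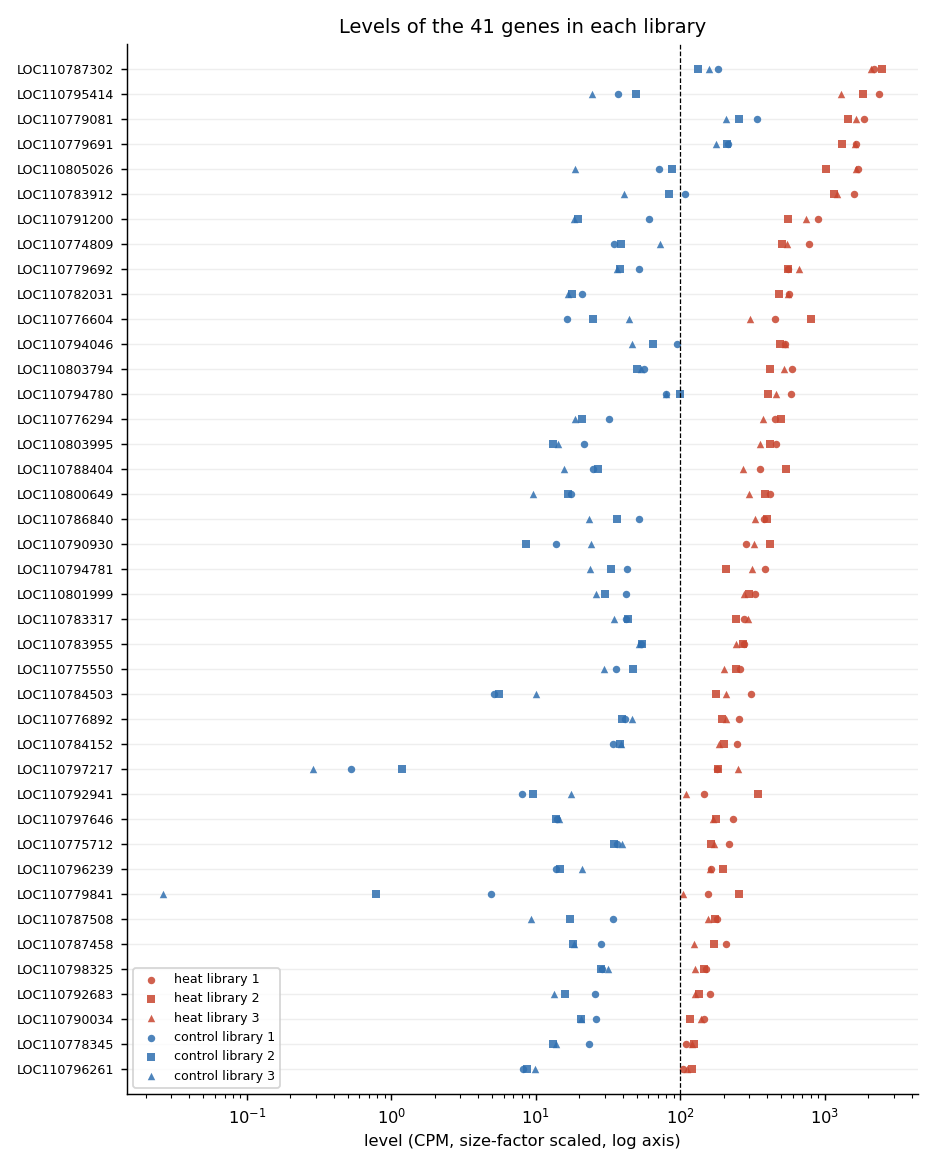
Level of each of the 41 genes in each library, in CPM on a log axis, with genes ordered by their heat mean, heat libraries in red and control libraries in blue. The dashed line marks 100 CPM. Red points lie right of blue ones for every gene because the genes were chosen that way, and LOC110797217 and LOC110779841 have the lowest control levels.

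The set is a small part of the genes abundant in heat. Of 1210 genes with at least 100 CPM in each heat library, 403 had no control library above their lowest heat library, 101 reached a ratio of lowest heat to highest control of 2, and 41 (3.39%) a ratio of 4. In 17 genes that ratio was 8 or more. The other 1169 genes had a median fold of means of 1.04, while the 41 had a median of 10.6, with a range of 4.80 to 305. By fold of means, 15 genes lay between 4 and 8, 11 between 8 and 16, 11 between 16 and 32 and 4 at 32 or more. The opposite rule, with at least 100 CPM in each control library and at least 4 times less in heat, was met by 96 of 1447 genes.

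**Figure D2:**
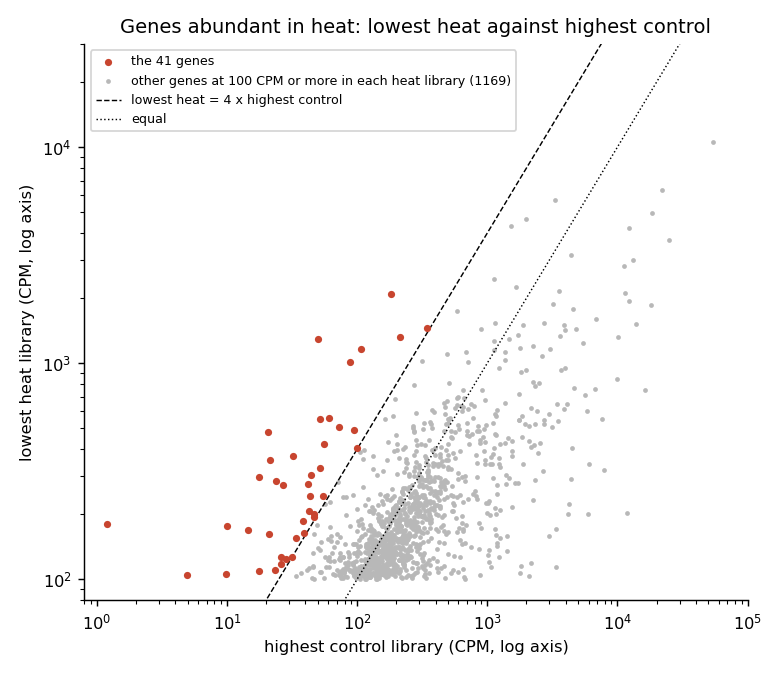
Lowest heat library against highest control library, in CPM on log axes, for the 1210 genes with at least 100 CPM in each heat library. The 41 genes, in red, lie above the dashed line of 4-fold separation, 3.39% of the genes shown, and most grey genes scatter around or below the dotted line of equal levels.

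The most abundant gene was LOC110787302, with 2196, 2509 and 2096 CPM in heat libraries 1 to 3, against 184, 133 and 158 CPM in control libraries 1 to 3. Its mean of 2267 ± 215 CPM placed it 21st among all genes in heat, while 158 ± 25.4 CPM placed it 1017th in control (SD, n = 3 each), a 14.3-fold difference. LOC110779691 had 1657, 1319 and 1629 CPM in heat, against 215, 210.2 and 178 CPM in control. Both genes were close among replicates, and both were already well expressed at the cooler temperatures.

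LOC110779081 had the highest control level of the set, with 1876, 1454 and 1654 CPM in heat, against 342, 253 and 208 CPM in control. Its fold of means, 6.21, was the lowest among the 6 most abundant genes. LOC110795414 differed most among these 6, at 49.4-fold, with 2356, 1842 and 1293 CPM in heat, against 36.8, 49.7 and 24.6 CPM in control. It ranked 29th among all genes in heat and 4713th in control.

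LOC110805026 had 1686, 1013 and 1641 CPM in heat, against 71.6, 88.2 and 18.8 CPM in control. LOC110783912 had 1594, 1162 and 1214 CPM in heat, against 108, 84.0 and 41.01 CPM in control. In both genes control library 3 was the lowest, in LOC110805026 by 4.70 times between the highest and lowest control library. Their folds of means were 24.3 and 17.1.

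Per kilobase of the length that the authors' FPKM values imply, the order of levels changed. LOC110787302, with 838 bp counted, still led at 2705 ± 257 CPM per kb in heat and 189 ± 30.3 in control. LOC110779691 followed, at 1490.4 ± 182 CPM per kb in heat and 195 ± 19.5 in control. LOC110800649 was next at 957 ± 163 CPM per kb in heat and 37.95 ± 11.6 in control (SD, n = 3 each), although 18th in the set by CPM. At 384 bp it was the shortest of the set, and its counted length equalled its whole span in the gene table. Levels per kb of LOC110800649, LOC110779081 (911 ± 116 in heat and 147 ± 37.3 in control) and LOC110795414 (907 ± 264 in heat and 18.4 ± 6.24 in control) did not differ in heat beyond their spread.

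Next in abundance came a tier between 500 and 1000 CPM in heat. LOC110791200 had 896, 557 and 739 CPM in heat, against 60.4, 19.7 and 18.3 CPM in control. Its fold of means was 22.3 and became 38.3 without control library 1, the library where it was highest among controls. LOC110774809 had 778, 504 and 549 CPM in heat, against 34.8, 39.1 and 72.5 CPM in control. In it control library 3 was the highest instead, so these genes did not share 1 order of control libraries.

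LOC110782031 was among the steadiest of this tier, with 564, 479 and 557 CPM in heat, against 20.8, 17.7 and 16.7 CPM in control. Its lowest heat library was 23.0 times its highest control library, the third largest such ratio of the set. LOC110794046 had 529, 491 and 533 CPM in heat, against 94.5, 65.2 and 46.7 CPM in control. The heat libraries of LOC110794046 had the smallest coefficient of variation (CV) of the set, 4.43%, while its controls varied by 35.1%.

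LOC110803794 showed the reverse, with a CV of 16.8% in heat and 5.81% in control. It had 591, 421 and 526 CPM in heat, against 56.0, 49.9 and 53.4 CPM in control. LOC110776604 had 454, 808 and 304 CPM in heat, against 16.4, 25.0 and 44.3 CPM in control. Heat library 2 stood apart for LOC110776604, at 2.66 times heat library 3.

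Some genes were barely expressed in control and abundant in heat. LOC110797217 had 179.9, 182 and 249.8 CPM in heat, against 0.524, 1.19 and 0.288 CPM in control, which are 26, 59 and 11 reads. Its fold of means, 305, was the largest of the set and became 500.3 without control library 2. LOC110779841 had 155, 255 and 104 CPM in heat, against 4.90, 0.786 and 0.0262 CPM in control. The control values of LOC110779841 rest on 243, 39 and 1 reads, and its 90.1-fold difference of means became 421-fold without control library 1.

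LOC110784503 had 307, 176 and 207 CPM in heat, against 5.16, 5.60 and 9.96 CPM in control, a 33.3-fold difference. LOC110796261 had the lowest heat mean of all 41 genes, with 105, 121 and 112 CPM in heat, against 8.11, 8.69 and 9.83 CPM in control. These 4 genes were those under 10 CPM in control, and they spanned the set from its largest fold to 12.7-fold.

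Several genes of middling heat level differed strongly between the groups. LOC110803995 had 463, 418 and 356 CPM in heat, against 21.4, 13.1 and 14.2 CPM in control. LOC110800649 had 418, 387 and 298 CPM in heat, against 17.6, 16.6 and 9.49 CPM in control. Their folds of means were 25.4 and 25.2, and in both heat library 1 was the highest and heat library 3 the lowest.

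LOC110790930 had 286, 417 and 322 CPM in heat, against 13.8, 8.57 and 24.0 CPM in control. LOC110776294 had 455, 494 and 371 CPM in heat, against 32.3, 20.8 and 18.8 CPM in control. Folds of means were 22.1 for LOC110790930 and 18.4 for LOC110776294. LOC110786840, with 377, 396 and 327 CPM in heat, against 52.1, 36.2 and 23.2 CPM in control, stood lower at 9.86-fold.

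Most of the other genes had heat means of 119 to 303 CPM and folds of means of 4.80 to 17.2, while LOC110779692, LOC110794780 and LOC110788404 averaged 589, 485 and 388 CPM in heat. LOC110797646 was the tightest in control, with 233, 177 and 168 CPM in heat, against 13.9, 13.7 and 14.4 CPM in control, a 13.7-fold difference. LOC110796239, LOC110801999, LOC110787508, LOC110787458, LOC110792683 and LOC110778345 lay between 7.08- and 10.6-fold. The fold of LOC110787508 was 8.36 and became 12.7 without control library 1. LOC110783317, LOC110775550, LOC110790034, LOC110784152, LOC110776892, LOC110775712, LOC110783955 and LOC110798325 lay between 4.80- and 6.79-fold.

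At the edge of the ratio of 4, LOC110798325 (ratio 4.03), LOC110794780 (4.07) and LOC110775712 (4.15) were just inside. LOC110782950 (3.95), LOC110799548 (3.92) and LOC110777299 (3.67) were just outside. At the edge of 100 CPM, the lowest heat libraries of LOC110779841, LOC110796261 and LOC110792941 were at 104, 105 and 109 CPM, inside. Those of LOC110784815, LOC110784359 and LOC110793370 were outside, at 95.4, 86.6 and 72.1 CPM. LOC110784815, at 95.4, 107 and 102 CPM in heat, against 15.6, 14.1 and 14.6 CPM in control, missed the level by less than its own spread.

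The heat libraries did not rank alike for all 41 genes. Heat library 1 was the highest for 26 genes, heat library 2 for 11 and heat library 3 for 4. Among the other 1169 genes abundant in heat, library 1 was the highest for 46.5%, library 2 for 41.1% and library 3 for 12.4%. The highest heat library exceeded the lowest by 1.5 times or more for 11 of the 41 genes (26.8%) and for 345 of the 1169 others (29.5%). The median CV in heat was 14.2% for the set and 15.3% for the others.

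A range of at least 2 times in heat was found for LOC110792941, LOC110776604 and LOC110779841. LOC110792941 had 146, 347 and 109 CPM in heat, against 8.01, 9.60 and 17.5 CPM in control, and its 17.2-fold difference became 10.9-fold without heat library 2. All 3 genes were highest in heat library 2 and lowest in heat library 3, and so was LOC110788404, with 357, 536 and 272 CPM in heat, against 25.1, 26.8 and 15.7 CPM in control. The 7 others with a range of 1.5 times or more, among them LOC110795414 and LOC110805026, were highest in heat library 1. What sets heat library 2 apart for these genes was not tested.

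**Figure D3:**
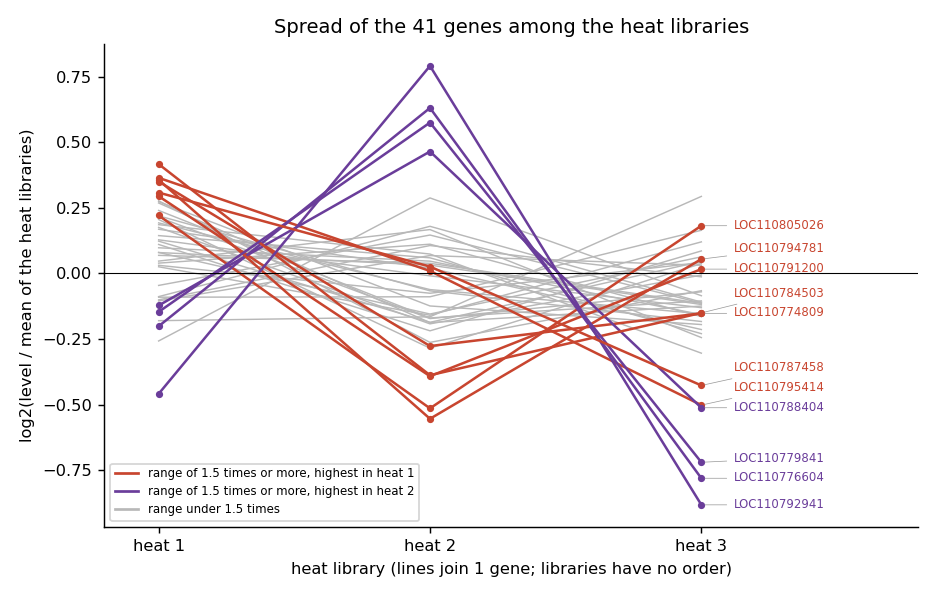
Level of each of the 41 genes in heat libraries 1 to 3 relative to the gene's heat mean, on a log2 scale, with 1 line per gene. Named lines are the 11 genes with a range of 1.5 times or more. The 4 in purple peak in heat library 2 and are lowest in heat library 3, and the 7 in red peak in heat library 1.

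Control libraries varied more for the set than for genes of a similar control level. Of the 34 genes with a control mean of 10 to 100 CPM, the median control CV was 27.2%, against 13.3% for the 8606 other genes in that range. The 96 genes that met the opposite rule had a median CV of 23.9% in heat, where they were low, and 14.8% in control. A wider spread in the group where genes were low was thus not particular to the set, though this comparison was not matched for level. Control library 1 was the highest for 21 of the 41 genes, control library 2 for 8 and control library 3 for 12. Among the other genes abundant in heat, control library 3 was most often the highest, for 44.3%. This order was part of the values that chose the genes and was not tested.

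The gene table and the counted lengths describe the structure of the 41 genes, which the choice did not use directly. The floor of 100 CPM is not scaled for length, so length could enter the choice through it. Their median counted length was 1696 bp (384 to 3904 bp), against 1668 bp for the 1169 others and 1309 bp for the 96 genes that met the opposite rule. A single RefSeq transcript was listed for 28 of the 41 (68.3%), against 75.1% of the matched others and 86.0% of the opposite set. LOC110794780 had 4 transcripts, the most of the set. The median gene span was 2.76 times the counted length for the set, 2.84 times for the others and 2.07 times for the opposite set. Spans of at most 1.5 times the counted length were found for 7 of the 41 (17.1%) and for 12.7% of the others. Genes are not independent, and these shares were not tested.

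The 41 genes lay on all 6 chromosomes, with 6 each on chromosomes 1 and 2, 7 on chromosome 3, 8 on chromosome 4, 4 on chromosome 5 and 10 on chromosome 6. Chromosome 6 held 24.4% of the set and 15.6% of the matched other genes abundant in heat, and chromosome 1 held 14.6% of the set and 19.7% of those others, differences that were not tested. Position was not used to choose them. In the order of genes in the BTI_SOV_V1 table, 5 of the 41 lay beside each other or 1 gene apart, in 2 places. This order is that of the table, since the authors' own added models are placed on scaffolds and not on chromosomes, and adjacency and overlap there may differ. On chromosome 4, LOC110779691 and LOC110779692 were adjacent, and LOC110787302 was separated from LOC110779691 by a single gene, LOC130471773, that is not among the gene numbers of the count table. On chromosome 6, LOC110794781 and LOC110794780 were adjacent. A matching count for other genes is not given here, and whether the set lies closer together than other genes was not tested.

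The chromosome 4 genes included 2 of the 6 most abundant of the set. LOC110779692 had 553, 554 and 660.0 CPM in heat, against 51.7, 38.4 and 36.7 CPM in control, a 13.9-fold difference close to the 14.3-fold of LOC110787302, while LOC110779691 was 7.64-fold higher. All 3 were short, with counted lengths of 838 bp for LOC110787302, 1030 bp for LOC110779691 and 866 bp for LOC110779692. On chromosome 6, LOC110794781 had 388, 206 and 315 CPM in heat, against 42.9, 33.3 and 23.6 CPM in control. Its neighbour LOC110794780 had 587, 404 and 463 CPM in heat, against 79.98, 99.3 and 79.5 CPM in control, and both were highest in heat library 1 and lowest in heat library 2. Reads of near-identical copies can be split or dropped in counting, and how similar these neighbours are in sequence was not tested.

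**Figure D4:**
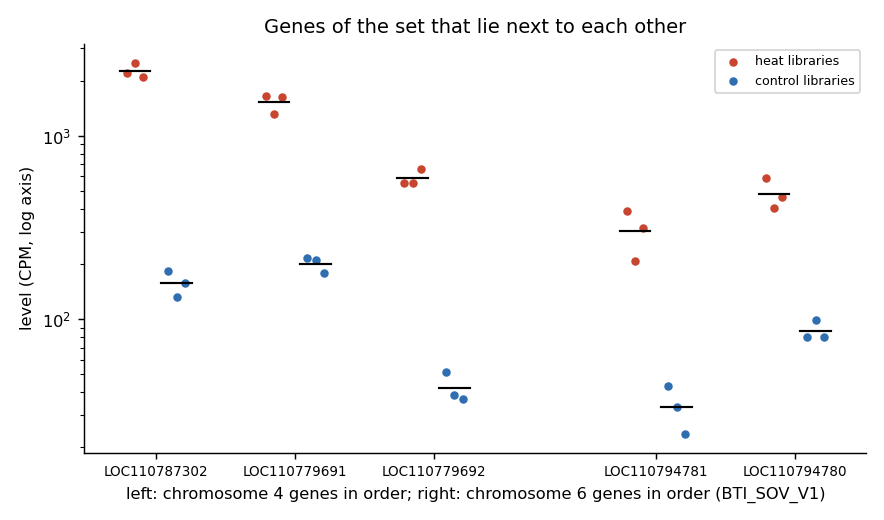
Levels in CPM on a log axis of the 5 genes of the set that lie beside each other or 1 gene apart. They are in gene order on chromosome 4 (left) and chromosome 6 (right). Points are libraries, heat in red and control in blue, and lines are group means. The 3 chromosome 4 genes average 589 to 2267 CPM in heat and 42.3 to 201 CPM in control.

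Neighbours outside the set give a measure that the choice of the 41 genes did not use. Within 2 genes on each side lay 153 such genes, of which 113 were counted and 89 passed the filter on low counts. With edgeR's quasi-likelihood test and Benjamini-Hochberg adjustment over all 20145 genes tested, 24 of these 89 (27.0%) were higher in heat and 6 (6.74%) lower at an adjusted p below 0.05. Over all tested genes, 11.6% were higher and 13.6% lower. The same fit called all 41 genes of the set higher, beside that background of 11.6%, which follows from how they were chosen.

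Immediate neighbours were called higher more often still, 16 of 48 (33.3%), with 3 lower. The median log2 fold change was 0.31 for the 89 neighbours, 0.48 for the 48 immediate ones and 0.01 for all tested genes. Around the 1159 matched other genes abundant in heat, 253 of 2218 tested neighbours (11.4%) were higher and 355 (16.01%) lower. Around the genes that met the opposite rule, 17 of 205 (8.29%) were higher and 46 (22.4%) lower. Genes are not independent, and the differences between these shares were not tested.

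**Figure D5:**
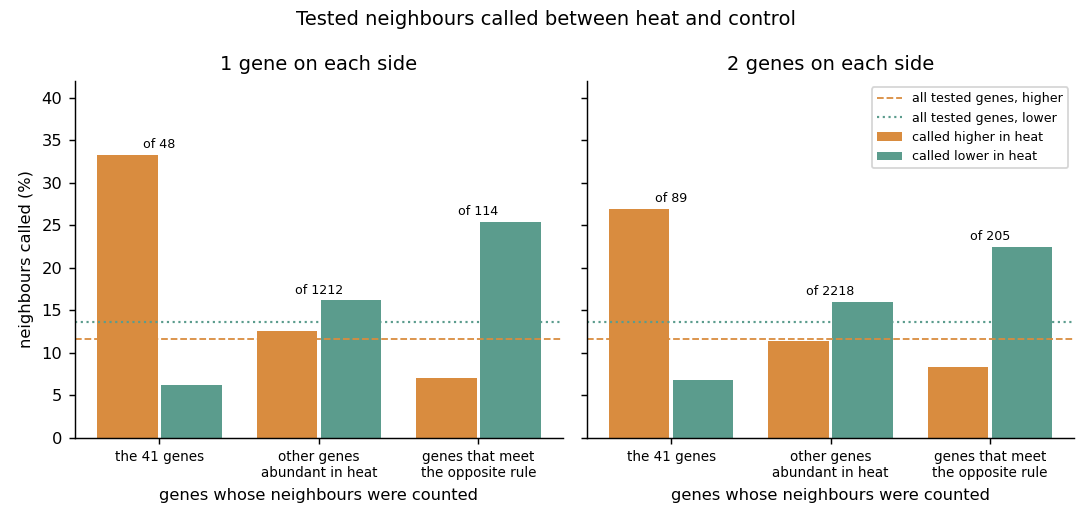
Share of tested neighbouring genes called higher (orange) or lower (green) in heat, for 1 gene (left) and 2 genes (right) on each side of the 41 genes, of the other genes abundant in heat and of genes that met the opposite rule. Lines mark the share of all tested genes, 11.6% higher and 13.6% lower. Neighbours of the 41 genes stand at 33.3% and 27.0% higher, and numbers above the bars are the neighbours tested.

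These counts depended on single libraries, as the whole fit did. Without heat library 1, 13 of 90 neighbours (14.4%) were higher, against 5.40% of all tested genes, and without control library 2, 11 of 90 (12.2%), against 4.19%. Without control library 2 the call of LOC110779841 was also lost (adjusted p = 0.0538, edgeR). That gene was chosen on the same contrast, so nothing is read from its call. By library totals alone, 38 of 89 neighbours (42.7%) were higher, against 31.2% of all tested genes.

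The neighbours called higher were mostly far less abundant than the gene beside them. Their heat means were a median 7.19% of that of the set's gene, from 0.669 to 178%, and 8 of the 24 averaged under 10 CPM in heat. Only 3 of the 24 reached 100 CPM in each heat library. Of the 37 genes of the set with a tested neighbour, 21 had at least 1 called higher, 5 had at least 1 called lower and 4 had both. The same count around other genes is not given here, so these numbers cannot be read as high or low. Whether reads of an abundant gene were counted for the gene beside it was not tested.

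Of 8 tested neighbours at least 4-fold higher in heat, 6 were called, and these were singled out after their values were seen. The share of all tested genes at that fold is not given here, so the count is a description only. The 2 not called were LOC110776295 (log2 fold change 3.26, adjusted p = 0.072, edgeR) and LOC110781945 (2.10, adjusted p = 0.0708, edgeR). LOC110774815, near LOC110774809, had 5.999, 8.55 and 5.17 CPM in heat, against 0.484, 0.444 and 0.550 CPM in control (log2 fold change 3.73, SE 0.33, adjusted p = 0.000773, edgeR). LOC110796209, near LOC110796239, had 36.9, 28.7 and 37.2 CPM in heat, against 7.502, 4.25 and 3.98 CPM in control (log2 fold change 2.71, SE 0.29, adjusted p = 0.00136, edgeR). In both the groups did not overlap, which choosing them by call and fold makes likely, so nothing is read from it.

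The log2 fold change was 2.56 for LOC110787509 beside LOC110787508, 2.11 for LOC110776266 beside LOC110775550 and 2.08 for LOC110787946 near LOC110788404. The sixth, LOC110802000, is a long non-coding RNA that overlaps LOC110801999 and averaged 3.42 ± 1.06 CPM in heat and 0.839 ± 0.252 CPM in control. The sources used here do not say whether counting used strand, so reads of such an overlap may not be told apart. In all, 3 of the 41 genes are overlapped by another gene of the table.

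Of 9 tested neighbours with at least 100 CPM in each heat library, 3 were called higher and 6 were not called, with log2 fold changes of -0.38 to 0.14 among those 6. Over all tested genes of any level 11.6% were higher, and the share among genes this abundant is not given here. The 3 called, also named after their values were seen, follow. LOC110790033, near LOC110790034, had 295, 230 and 189 CPM in heat, against 82.1, 88.1 and 106 CPM in control (log2 fold change 1.37, SE 0.21, adjusted p = 0.00471, edgeR). LOC110797218, beside the gene with the largest fold, LOC110797217, had 271, 268 and 209 CPM in heat, against 149, 134 and 190.2 CPM in control, a log2 fold change of 0.66 with an adjusted p of 0.0448 by edgeR. s1Fa (LOC110779082), whose product is a small DNA-binding protein, lies beside LOC110779081 and had 160.0, 171 and 127 CPM in heat, against 78.3, 61.6 and 62.3 CPM in control (log2 fold change 1.181, SE 0.18, adjusted p = 0.0046, edgeR).

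The 6 neighbours that fell had log2 fold changes of -0.65 to -2.77. LOC110776889, near LOC110776892, had 68.3, 69.9 and 74.0 CPM in heat, against 187, 205 and 192 CPM in control (log2 fold change -1.46, SE 0.13, adjusted p = 0.000814, edgeR). LOC110776892 itself had 253, 194 and 208 CPM in heat, against 41.5, 39.5 and 46.4 CPM in control, so opposite differences stood 2 genes apart. LOC110802033 and LOC110802010, both near LOC110801999, were also lower in heat, with log2 fold changes of -0.75 and -2.77.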

How the data were processed

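RNA sequencing counts of 3 heat and 3 control libraries were analysed. The authors deposited raw counts per gene, as whole numbers, and FPKM values, and the submitters' processing notes list HISAT2 2.0.4, HTSeq 0.9.1 and DESeq 1.18.0 with no role or order. The sources used here do not give the genome build, strand use or handling of multiply aligned reads. Counted lengths were recovered from the deposited counts and FPKM, whose ratio was constant in 24889 genes within a relative tolerance of 1e-06. CPM were counts divided by median-of-ratios size factors (genes with reads in all libraries) and by the mean library total. Matched genes numbered 25304 of 30732 in the BTI_SOV_V1 gene table, which was used for names, transcript numbers, spans and gene order only. The deposited added models lie on scaffolds and not on chromosomes, so neighbours are those of the table and may not be those of the annotation that was counted.

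The whole table was tested with edgeR 4.0.16 (quasi-likelihood, TMM, its filter on low counts, group as the only term, two-sided, R 4.3.3) after the script was tested on simulated data. Limma-voom (limma 3.58.1) and DESeq2 1.42.0 were alternatives. The genes and lists were chosen with earlier results of these data known. Genes named in full were the 20 with the highest heat mean, the 10 with the largest ratio and 3 on each side of each threshold, which with overlaps gave 24 by the first 2 parts, and the other members were named to account for all. Planned comparisons of gene descriptions, protein patterns, protein families and promoter motifs were not made, as no such data were used here. Replicates differed by more than sampling noise in every pair (chi-square per degree of freedom 79.7 or more).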

Additional observations from a re-analysis of the deposited data

How the results depend on the processing

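With TMM scaling 41 genes met the rule, all of them those reported, and leaving out 1 library, which can only loosen the rule apart from small shifts in scaling, gave 41 to 54 genes with the 41 among them. By library totals alone 63 genes met it, and all 41 were among them. The rule gave 24 genes at 200 CPM, 101 at a ratio of 2 and 17 at a ratio of 8. On FPKM with the same thresholds 52 genes met it, 33 of them among the 41, and admitting the added models gave 42. The set's share of counts was 2.40 to 2.61% in heat and 0.140 to 0.174% in control when 1 library was left out. Of 328 recomputed folds of means (2 scalings and 6 left-out libraries), 306 moved by less than the replicate spread and 22 did not. Those 22 came from library totals alone, except LOC110797217 without control library 2 and LOC110779841 without control library 1. Leaving out 1 of 3 libraries of a group can seldom move a mean that far, and TMM scaling moved log2 folds by at most 0.00993. The count of 306 therefore says little about stability. Library totals alone raised all log2 folds, by 0.349 to 0.495. The direction of the folds was fixed by how the genes were chosen. The count of the 41 called higher, 40 to 41 with 1 library left out, follows from the same choice and says nothing about stability. Of all tested genes, 5074 were called by edgeR, 7759 by library totals alone, 6653 by DESeq2 and 2291 to 4355 with 1 library left out. With the replicate number as a replicate block, 2628 were called and 16 neighbours were higher (18.0%, against 5.202% of all tested genes). That number is no pairing in the labels. Same-numbered libraries correlated at -0.133, -0.123 and -0.292 in their deviations from the group means. Differently numbered heat and control libraries correlated at -0.176 to 0.283, and whether any shared a batch was not tested. Neighbours called higher numbered 38 by library totals alone and 11 to 21 with 1 library left out; the neighbour alternatives were chosen after seeing the data. Alternatives on promoter motifs and protein length were not run. LOC110779841 and LOC110797217 each had fewer than 100 reads in a control library. For LOC110779841 the control libraries also disagreed, at 243, 39 and 1 reads, so depth is not its only limit.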
